A study of Mus musculus with 6 samples.

Results

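The natriuretic peptide receptors and the genes of cyclic GMP (cGMP) signalling were described as a set of 6 genes named by symbol: Npr1, Npr2, Npr3, Prkg1, Gucy1a3 and Gucy1b3. Of these, 5 were listed among the 12966 genes of the expression table and 5 were among the 11397 tested genes, and Prkg1, the cGMP-dependent protein kinase, had no row and was not analysed here. The set was chosen from results of the same comparison, in which Npr1 had passed the test, so the differences between the groups given for these genes are a description and carry no test of their own. Values are FPKM, read fragments scaled to the length of the transcript and the size of the library. On this scale per length, levels of different genes can be compared approximately. Where 3 values of a group are given, they are libraries 1, 2 and 3 in that order.

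RNA was sequenced from brown adipose tissue of male C57BL/6J mice at 10 weeks of age. The 3 Ctrl libraries came from Bscl2f/f mice, which carry the floxed alleles without a Cre. The 3 BKO libraries came from Bscl2f/f Ucp1Cre mice, in which the Ucp1 promoter drives Cre in brown adipocytes, so that other cells of the tissue keep the gene intact. Only these mice carried the Cre, and an effect of the Cre cannot be told apart from that of the deletion. Whether each library came from a separate animal is not stated, and the spread between libraries may therefore be technical. Bscl2, which encodes the lipid droplet protein seipin, measured 116, 104 and 106 FPKM in the Ctrl libraries and 16.5, 16.9 and 18.9 FPKM in the BKO libraries. Its difference was -2.57 in log2(FPKM + 1) units (SE 0.0788), with an adjusted p = 3.95e-05 in the limma fit over all tested genes. The exact two-sided permutation p was 0.1, which is the lowest possible with 3 against 3 libraries. Adipocyte markers were abundant in every library, with a summed level of 18336 to 20049 FPKM. Fabp4 supplied most of this sum, with means of 10924.5 FPKM in Ctrl and 11399.6 FPKM in BKO. Of the 10 tested markers, Pnpla2 and Cidea were lower in every BKO library than in any Ctrl library. That is 20.0% beside 6.82% of all tested genes, and 0 of 10 passed the limma test. The sum of all FPKM was highest in BKO-3, at 2808874 against 1119228 in the library with the lowest sum, while the median gene stood between 5.64 and 6.10 FPKM in all 6. The number of reads is unknown.

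Natriuretic peptides of the heart and of the vessel wall act on fat cells through receptors that make cGMP. Npr1 encodes the guanylyl cyclase receptor of the atrial and B-type peptides, Npr2 that of the C-type peptide, and Npr3 the clearance receptor, which lacks a cyclase domain and takes the peptides up for degradation. Gucy1a3 and Gucy1b3 encode the alpha and beta subunits of soluble guanylyl cyclase, the cGMP source that responds to nitric oxide. In adipocytes cGMP activates protein kinase G, which promotes lipolysis and, through p38 kinase, the thermogenic genes, and the balance of signalling to clearance receptor is known to set how strongly fat responds to the peptides.

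Npr1 and Npr3 were the members that stood higher in every BKO library than in any Ctrl library, and their promoters are shown because that order of the libraries held for a signalling and for a clearance receptor. The sequences are the 250 bases before the annotated start in RefSeq (GRCm38.p6), a different build from the one the authors used, read 5′ to 3′ on the strand of the gene. The Npr1 stretch lies at chr3:90465867-90466116 on the minus strand and the Npr3 stretch at chr15:11907372-11907621 on the minus strand. Capitals mark every match, on either strand, to the motifs searched.
Npr1 promoter: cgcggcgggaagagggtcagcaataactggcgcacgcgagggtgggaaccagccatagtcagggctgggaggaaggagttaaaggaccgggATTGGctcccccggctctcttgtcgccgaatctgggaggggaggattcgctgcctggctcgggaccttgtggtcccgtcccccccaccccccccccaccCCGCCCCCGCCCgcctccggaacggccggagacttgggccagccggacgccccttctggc
Npr3 promoter: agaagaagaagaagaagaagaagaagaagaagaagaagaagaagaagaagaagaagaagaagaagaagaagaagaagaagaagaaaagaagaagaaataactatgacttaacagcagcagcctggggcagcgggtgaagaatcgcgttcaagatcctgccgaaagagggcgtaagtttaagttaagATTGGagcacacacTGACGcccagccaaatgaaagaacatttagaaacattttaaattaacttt
The Npr1 stretch was 70.4% G and C, more than 91.2% of the 32851 promoters in the table, whereas the Npr3 stretch was 38.8% G and C, more than 9.70% of them. The Npr1 stretch held 2 adjacent Sp1 boxes (GGGCGG, present in 32.7% of promoters) and 1 CCAAT box (CCAAT, 33.8%). In the Npr3 stretch there was 1 CCAAT box, 1 cAMP response element half-site (TGACG, 17.8%) and an uninterrupted run of 84 bases of the AAG repeat. A run of at least 30 bases of that repeat on the gene's strand occurred in 8 promoters of the table. Neither stretch matched the TATA box (TATAA, 22.8%), the E-box (CACGTG, 6.02%), the nuclear receptor half-site (AGGTCA, 14.0%), the composite site of ATF4 and C/EBP (TGATGNAA, 3.45%) or the FOXO site (TGTTTAC, 3.17%). The matched motifs did not overlap each other. Among the members whose levels overlapped between the groups, the Gucy1b3 stretch held 1 Sp1 box, 2 CCAAT boxes and 1 cAMP response element half-site. A Gucy1a3 stretch held 1 Sp1 box, while the other Gucy1a3 stretch and the Npr2 stretch matched no motif searched. A match describes the letters of the window and does not show that a factor binds there.

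Npr1 was the most abundant of the 5 genes and the least variable receptor. The Ctrl libraries measured 15.2, 15.7 and 15.2 FPKM and the BKO libraries 22.2, 23.6 and 23.4 FPKM. All BKO libraries lay above all Ctrl libraries, and the gap between the groups was many times the spread within either. The means were 15.4 ± 0.288 and 23.1 ± 0.738 FPKM (SD, n = 3 per group), a ratio of 1.50, and the difference was 0.56 on the log2(FPKM + 1) scale (SE 0.0639). The coefficient of variation was 1.88% in Ctrl and 3.20% in BKO. In the fit over all genes Npr1 was the 1 member of 5 that passed at an adjusted p below 0.05, where 0.158% of tested genes passed as higher and 0.00877% as lower. That call is what the choice of the set rests on. With any 1 library left out Npr1 did not pass, although the difference moved only between 0.54 and 0.58.

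Npr3 showed a larger ratio than Npr1 with a wider spread. The Ctrl libraries measured 7.53, 7.42 and 5.87 FPKM and the BKO libraries 11.7, 13.8 and 10.2 FPKM. The groups did not overlap, and the lowest BKO library exceeded the highest Ctrl library. The means were 6.94 ± 0.928 and 11.9 ± 1.82 FPKM (SD, n = 3 per group), a ratio of 1.71 and a difference of 0.70 on the log2(FPKM + 1) scale (SE 0.132), and Npr3 did not pass the test over all genes. Its coefficient of variation, 13.4% in Ctrl and 15.3% in BKO, was several times that of Npr1. Of the 5 members, 2 had BKO libraries that were all above the Ctrl libraries and 0 had them all below, against 9.06% and 6.82% of tested genes. These counts come from the comparison that chose the set.

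Npr2, the receptor of the C-type peptide, overlapped between the groups. The Ctrl libraries measured 9.75, 8.84 and 7.50 FPKM and the BKO libraries 8.62, 9.95 and 7.25 FPKM, so that both the highest and the lowest library were BKO. The mean was 8.70 ± 1.13 FPKM in Ctrl and 8.61 ± 1.35 FPKM in BKO (SD, n = 3 per group), with a difference of -0.02 on the log2(FPKM + 1) scale (SE 0.132).

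The subunits of soluble guanylyl cyclase were the least abundant members and also overlapped between the groups. Gucy1a3 measured 2.54, 2.07 and 1.81 FPKM in Ctrl against 2.17, 1.97 and 2.21 FPKM in BKO. Gucy1b3 measured 2.89, 2.74 and 2.60 FPKM in Ctrl against 2.74, 2.63 and 2.64 FPKM in BKO. Differences on the log2(FPKM + 1) scale were -0.01 (SE 0.112) and -0.03 (SE 0.0833). These genes, now named Gucy1a1 and Gucy1b1, are neighbours on chromosome 3 with 0 annotated genes between them. The FPKM of the beta subunit gene exceeded that of the alpha subunit gene in all 6 libraries, by a ratio of 1.14 to 1.44.

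**Figure D1:**
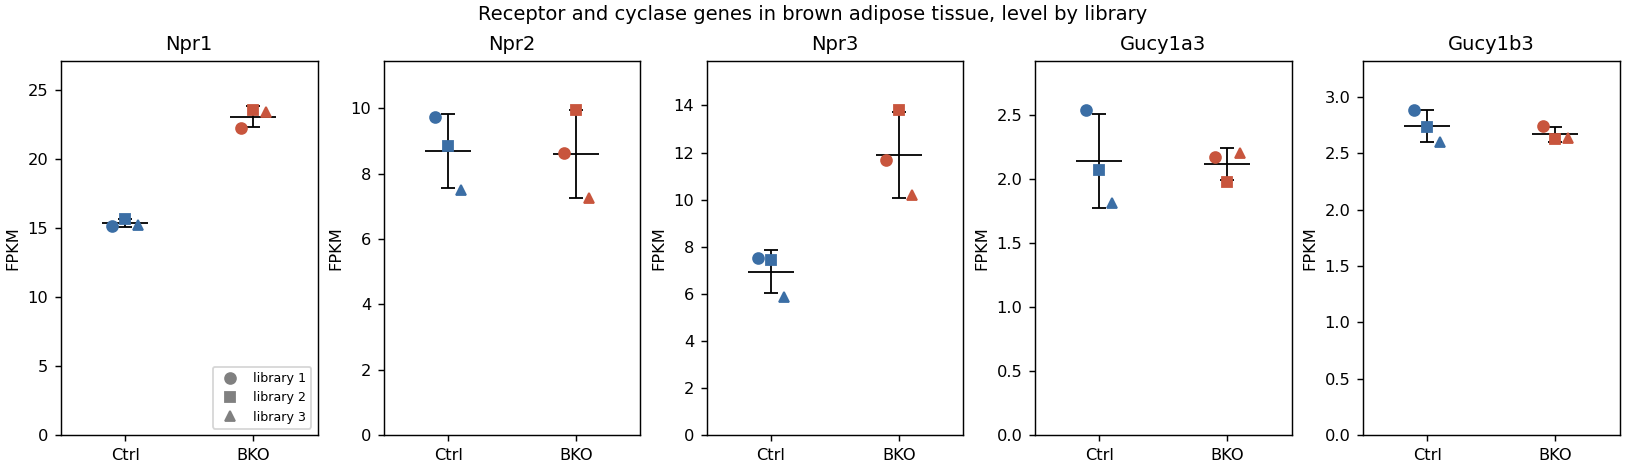
Level of each listed member in FPKM (vertical axes, from 0) in the 3 Ctrl and 3 BKO libraries. Symbols mark single libraries, horizontal bars the group mean and error bars 1 SD; Npr1 and Npr3 separate the groups, while Npr2, Gucy1a3 and Gucy1b3 overlap.

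Over all 6 libraries the order of mean levels was Npr1 (19.2 FPKM), Npr3 (9.42), Npr2 (8.65), Gucy1b3 (2.70) and Gucy1a3 (2.13). Npr1 lay above 78.2% of the listed genes by mean level, and Gucy1a3 above 25.2%. Neighbours in this order were compared within libraries by an exact two-sided sign-flip permutation test on the log2 ratio of their FPKM, with Benjamini-Hochberg adjustment over 4 pairs. The order was read from the same 6 libraries, so the pairs were not chosen independently of the values tested. Npr1 exceeded Npr3 in 6 of 6 libraries by a mean log2 ratio of 1.06 ± 0.211 (SD; exact p = 0.03125, adjusted p = 0.0417). Npr2 exceeded Gucy1b3 in 6 of 6 libraries by 1.67 ± 0.165, and Gucy1b3 exceeded Gucy1a3 in 6 of 6 by 0.35 ± 0.120, both with the same exact p, which is the smallest that 6 libraries can give. Such a p shows only that the order of FPKM repeated over the libraries, which may be technical replicates. A bias in the FPKM of a gene that is the same in every library would repeat as well. For Npr3 over Npr2 the mean log2 ratio was 0.07 ± 0.436 (SD, exact p = 0.719, adjusted p = 0.719). The order of Npr3 and Npr2 was reversed between the groups, since Npr2 was the higher in all 3 Ctrl libraries and Npr3 in all 3 BKO libraries. The test pools both groups, so its SD includes the step between them and its p does not show that the 2 levels were alike.

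Ratios within a library showed how the receptors varied with each other. The level of Npr3 relative to Npr2 was 0.773, 0.839 and 0.783 in the Ctrl libraries and 1.36, 1.39 and 1.40 in the BKO libraries. Within each group this ratio was steadier than either gene alone, with a coefficient of variation of 4.46% in Ctrl and 1.82% in BKO, and within each group libraries with less Npr2 also had less Npr3. Npr1 did not follow that variation, and its ratio to Npr3 had coefficients of variation of 13.7% and 15.4%. The ratio of Npr1 to Npr3, signalling to clearance receptor, was 2.01, 2.11 and 2.59 in the Ctrl libraries and 1.90, 1.71 and 2.30 in the BKO libraries. These ranges overlapped, and the mean log2 ratio was lower in BKO by an amount, -0.19, that moved from -0.30 without BKO-3 to -0.08 without Ctrl-3. Summed over the 3 receptors, the level was 31.0 ± 2.10 FPKM in Ctrl and 43.6 ± 3.35 FPKM in BKO (SD, n = 3 per group). Npr3 made up 20.6% to 23.2% of that sum in the Ctrl libraries and 24.9% to 29.2% in the BKO libraries.

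**Figure D2:**
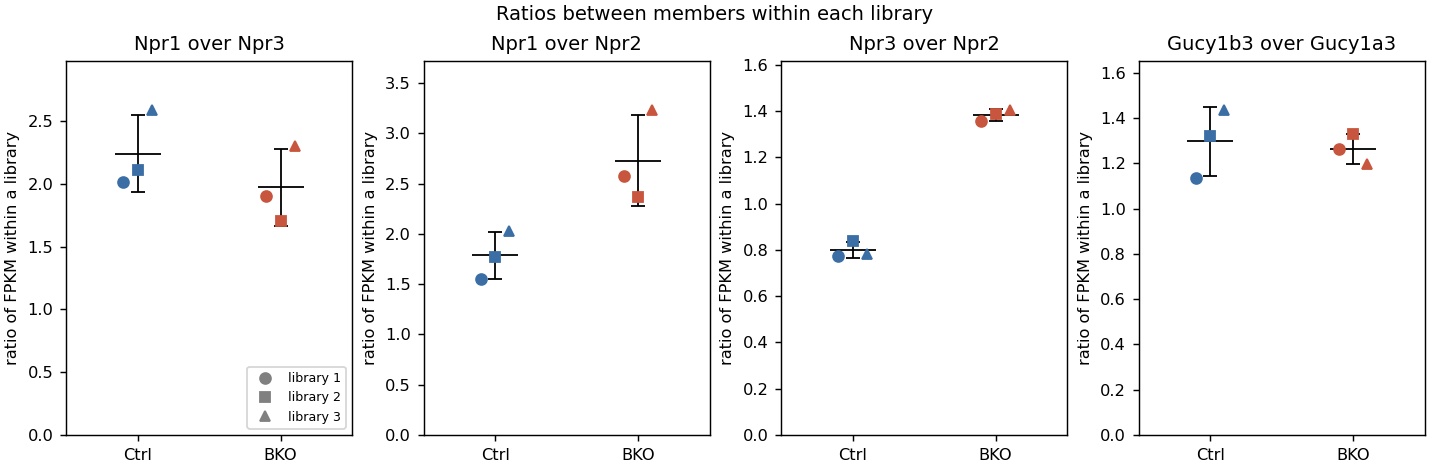
Ratio of FPKM between pairs of members within each library (vertical axes, from 0), for 3 Ctrl and 3 BKO libraries, with group means and 1 SD. The ratio of Npr3 to Npr2 lies between 0.773 and 0.839 in Ctrl and between 1.36 and 1.40 in BKO. That of Npr1 to Npr2 lies between 1.56 and 2.03 in Ctrl and between 2.37 and 3.23 in BKO. The ratios of Npr1 to Npr3 and of Gucy1b3 to Gucy1a3 overlap.

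Other genes of the pathway were read from 6 lists, which name 71 genes apart from the members. Of these, 38 were listed in the table and 35 were tested. In the fit over all genes (limma, Benjamini-Hochberg adjusted p below 0.05) 0 passed as higher and 0 as lower, beside 0.158% and 0.00877% of all tested genes. With shares this low, the absence of calls in lists of this size does not show that their genes were unchanged. The same limit applies to the counts of single lists given below. At an unadjusted p below 0.05 there were 2 of the 35, Mme and Pde3b, beside 10.2% of all tested genes. The median log2 difference of the 35 genes was -0.02, beside 0.01 over all tested genes and -0.01 over the 5 members. The groups did not overlap for 1 gene that was higher in BKO, Ddah2, and for 3 that were lower, Furin, Mme and Abcc5 (Abcc5, a cyclic nucleotide exporter, was chosen after its values were seen). They were 2.86% and 8.57% of the 35, beside 9.06% and 6.82% of all tested genes.

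None of the natriuretic peptide genes Nppa, Nppb and Nppc had a row in the table, nor did Corin, the protease that activates the atrial peptide, and they were not analysed here. Mme, which encodes neprilysin, the membrane protease that degrades natriuretic peptides, measured 33.0, 33.7 and 39.2 FPKM in Ctrl against 27.4, 20.4 and 32.1 FPKM in BKO. All BKO libraries lay below the Ctrl libraries, with BKO-3 close to Ctrl-1, and the difference of -0.41 on the log2(FPKM + 1) scale (SE 0.159, limma adjusted p = 0.441) did not pass. Ide, another peptide-degrading protease, had means of 26.1 ± 1.43 and 25.4 ± 1.79 FPKM in Ctrl and BKO (SD, n = 3 per group). The processing proteases Furin, at 18.6 ± 0.222 and 17.9 ± 0.433 FPKM, and Pcsk6, at 16.97 ± 3.67 and 15.0 ± 1.18 FPKM, did not pass either. None of 7 further guanylyl cyclase genes named in the lists had a row in the table.

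The list for nitric oxide supply, which holds synthases and genes linked to them, had 0 of 6 tested genes past the test. Nos3, endothelial nitric oxide synthase, averaged 4.05 ± 0.428 FPKM in Ctrl against 4.58 ± 0.486 FPKM in BKO (SD, n = 3 per group). Cav1, the caveolin that binds this synthase, stood at 357 ± 21.5 and 329 ± 38.7 FPKM, and Nosip, a synthase-interacting protein, at 10.9 ± 1.63 and 11.8 ± 1.13 FPKM. Ddah2, which breaks down an inhibitor of the synthase, stood at 3.07 ± 0.0601 and 3.59 ± 0.561 FPKM, with BKO-2 alone at 4.24 FPKM and the other BKO libraries at 3.25 and 3.28 FPKM.

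The phosphodiesterases that hydrolyse cGMP, or that cGMP regulates, also had 0 of 10 tested genes past the threshold, counted with the exporters. Pde3b, the adipocyte enzyme that cGMP inhibits, was the most abundant and measured 84.4, 81.1 and 90.1 FPKM in Ctrl against 66.1, 59.6 and 81.4 FPKM in BKO. BKO-3 lay above Ctrl-2, so the groups overlapped, and the difference was -0.31 on the log2(FPKM + 1) scale (SE 0.116, limma adjusted p = 0.438). Pde2a, which cGMP stimulates, averaged 16.8 ± 1.67 and 17.5 ± 0.468 FPKM, Pde1a, a calmodulin-dependent enzyme, at 13.4 ± 0.374 and 11.3 ± 1.94 FPKM, and Pde6d, a prenyl-binding subunit, at 9.25 ± 0.501 and 8.91 ± 1.17 FPKM in Ctrl and BKO (SD, n = 3 per group). Pde5a, the cGMP-specific enzyme of smooth muscle, was listed but had a mean below 1 FPKM and was not tested.

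Downstream of the kinase the tested genes likewise did not pass, 0 of 9 kinase substrates and 0 of 6 genes of the p38 arm. These are mRNA levels, and the activity of the encoded proteins was not measured. Lipe, hormone-sensitive lipase, averaged 394 ± 48.1 FPKM in Ctrl against 363 ± 11.7 FPKM in BKO (SD, n = 3 per group), and the droplet coat gene Plin1 at 280 ± 38.8 and 258 ± 3.86 FPKM. Rhoa, a small GTPase that protein kinase G phosphorylates, stood at 115 ± 2.43 and 119 ± 6.18 FPKM, and Rgs2, a regulator of G protein signalling, at 101 ± 22.8 and 115 ± 13.3 FPKM. Mapk14, p38 alpha, stood at 18.8 ± 1.82 and 20.7 ± 1.66 FPKM and its target Atf2 at 26.6 ± 3.70 and 22.7 ± 2.72 FPKM. Ppargc1a, a thermogenic coactivator, was at 11.7, 9.62 and 38.7 FPKM in the Ctrl libraries and at 12.8, 38.4 and 28.4 FPKM in the BKO libraries, and thus varied more within the groups than between them. Ucp1 ranged from 2484 to 3498 FPKM in Ctrl and from 2943 to 2979 FPKM in BKO.

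**Figure D3:**
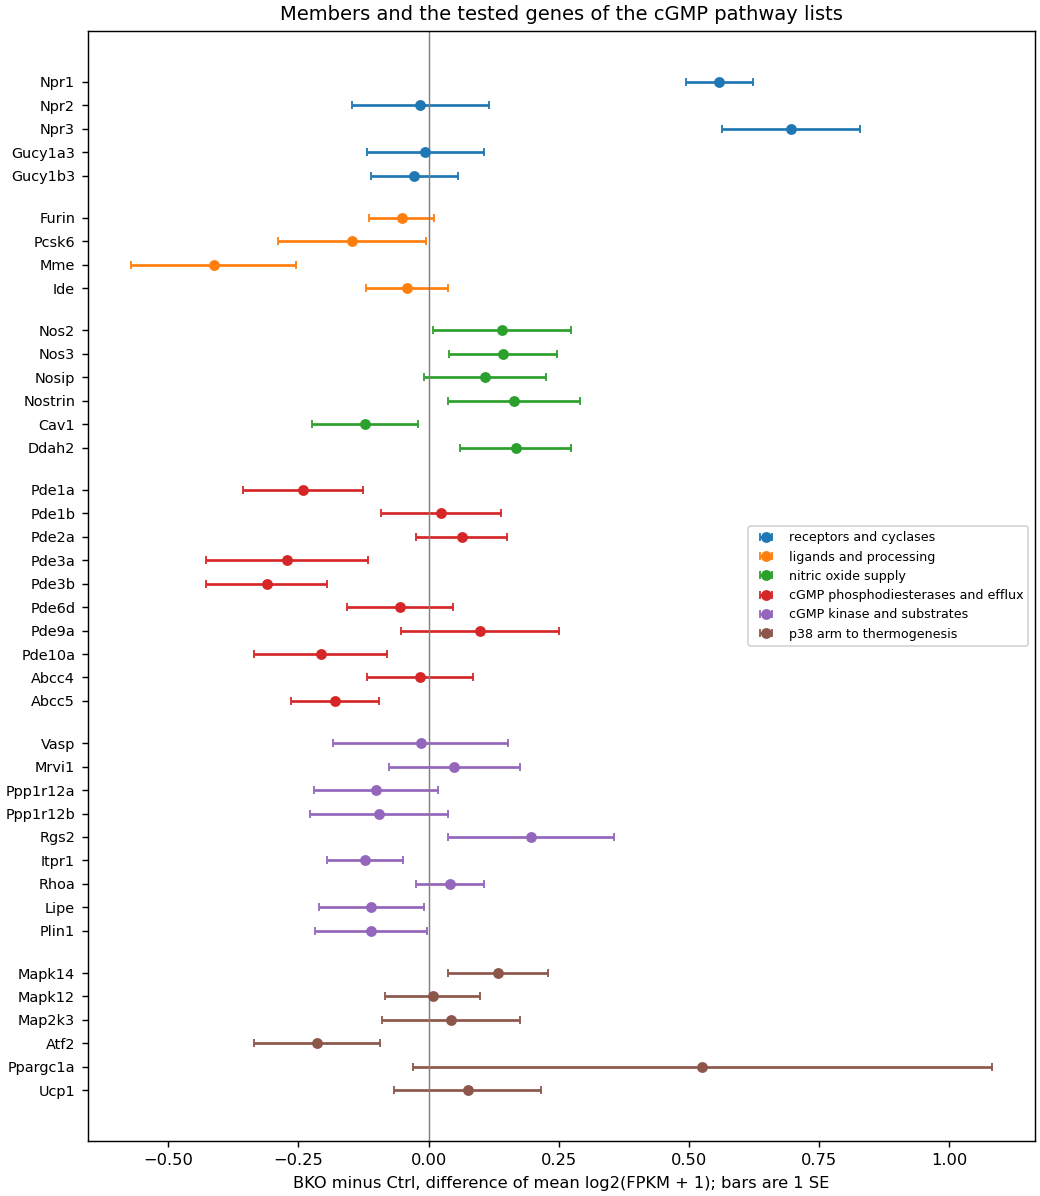
Difference of BKO minus Ctrl in mean log2(FPKM + 1) (horizontal axis) for the 5 members and the 35 tested genes of the pathway lists, each point with 1 SE. Npr1 at 0.56 and Npr3 at 0.70 lie to the right of the other genes, the nearest of which is Ppargc1a at 0.53 with an SE of 0.555. The members were chosen with results of this comparison known, so their place among the genes shown is a description.

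The 5 tested genes whose profile over the 6 libraries lay closest to that of Npr1 were Gm10163, Rassf4, Eif2ak3, Lrrc33 and Zfp771. Closeness was the root mean square difference of log2(FPKM + 1) values after centring each gene on its mean, and ran from 0.0307 for Gm10163 to 0.0891 for Zfp771. Because the measure includes the step between the groups, genes that stood higher in BKO are found first. Eif2ak3, which encodes PERK, the endoplasmic reticulum stress kinase, measured 3.35, 3.43 and 3.45 FPKM in Ctrl against 4.64, 5.09 and 4.92 FPKM in BKO. The predicted gene Gm10163 averaged 0.695 ± 0.0362 FPKM in Ctrl against 1.47 ± 0.0767 FPKM in BKO, and Rassf4, a Ras-association domain gene, 2.17 ± 0.0620 against 3.71 ± 0.250 FPKM (SD, n = 3 per group). The 5 genes were chosen for this pattern, so no test is given for them. Gm10163 lay below 1 FPKM in every Ctrl library and reached the level needed for testing through the BKO libraries. Its ratio of means, 2.11, was larger than the 1.50 of Npr1, and the added pseudocount brings the 2 log2 differences to 0.54 and 0.56. Among the members, Npr3 had the closest profile to Npr1, at a difference of 0.166, which placed it at rank 212, and Npr2 the least close, at 0.327.

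Markers of other cells in the tissue were summed per library to stand beside the receptor levels. In bulk tissue a change in the number of cells of a type and a change of RNA per cell cannot be told apart. Macrophage markers had a summed level of 40.0 to 60.9 FPKM in Ctrl and 128 to 154 FPKM in BKO, and 3 of 9 tested markers rose (Lyz2, Tyrobp and Ctss; limma, Benjamini-Hochberg adjusted p below 0.05), beside 0.158% of all tested genes, while 0 of the 11 listed markers was at 0 in any library. Lyz2, the lysozyme gene, made up much of this sum, at 30.9, 20.4 and 20.0 FPKM in Ctrl against 96.3, 78.0 and 78.3 FPKM in BKO. Cd163, a macrophage scavenger receptor named here after its values were seen, lay the other way, at 1.23, 0.780 and 1.10 FPKM in Ctrl against 0.329, 0.507 and 0.568 FPKM in BKO, with a mean too low to be tested. Preadipocyte and fibroblast markers summed to 341 to 446 FPKM in Ctrl and to 449 to 524 FPKM in BKO, Ctrl-1 lying close to BKO-2, with 0 of 9 past the limma test, 4 at an unadjusted p below 0.05 (10.2% of all tested genes were) and a median log2 difference of 0.41. Both sums moved with the group as Npr1 and Npr3 did, and their part in the receptor levels was not tested. Smooth muscle and pericyte markers, at 194 to 211 FPKM in Ctrl and 198 to 210 FPKM in BKO, and endothelial markers, at 206 to 223 and 201 to 224 FPKM, overlapped between the groups. Rgs5, a pericyte marker, supplied 106 ± 1.92 and 106 ± 4.01 FPKM of the smooth muscle and pericyte sum in Ctrl and BKO (SD, n = 3 per group). Of the 10 tested markers in that list, Acta2 and Cnn1, both of smooth muscle, were higher in every BKO library than in any Ctrl library, which is 20.0% beside 9.06% of all tested genes. The median log2 difference of that list was 0.12, with 0 of 10 past the limma test and 0 at an unadjusted p below 0.05. Skeletal muscle markers varied widely within the groups, from 70.2 FPKM in Ctrl-2 to 482 FPKM in Ctrl-1. The part of muscle in the receptor levels was not tested.

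**Figure D4:**
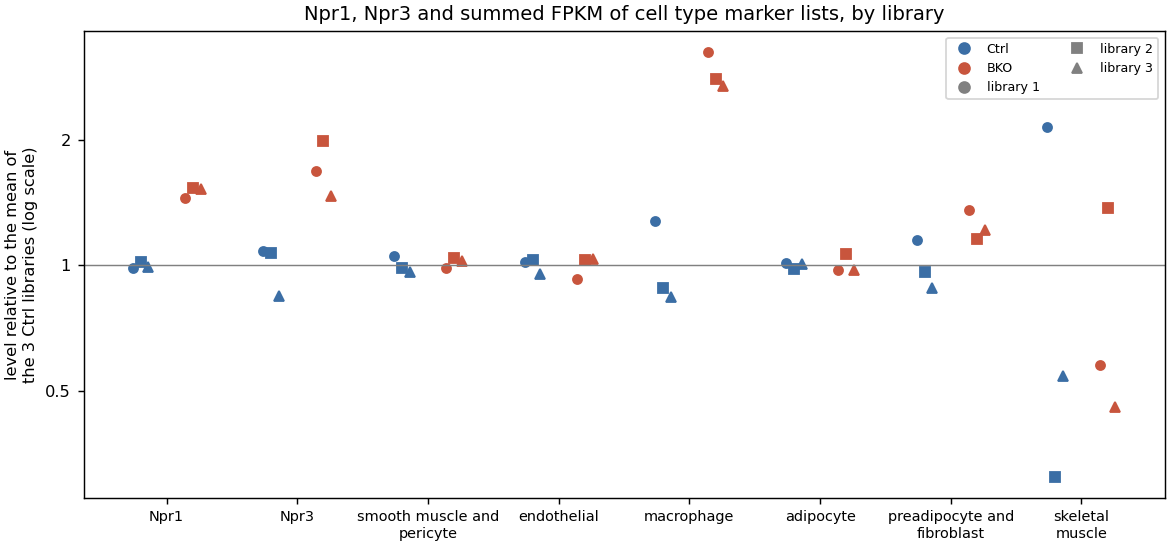
Npr1, Npr3 and the summed FPKM of 6 cell type marker lists in each library, relative to the mean of the 3 Ctrl libraries (log scale). Macrophage and preadipocyte sums are higher in all BKO libraries, smooth muscle, endothelial and adipocyte sums overlap, and skeletal muscle sums spread widely within both groups. Fabp4 supplies most of the adipocyte sum, and 2 of its markers, Pnpla2 and Cidea, were lower in every BKO library than in any Ctrl library.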

How the data were processed

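The deposited table holds 1 value per gene and library in FPKM, which the authors had already scaled to transcript length and sequencing depth. Per the submitters' processing notes, CASAVA 1.8, TopHat2 2.0.12, Cufflinks 2.2.1 and the build NCBIM37 were named, and neither their options nor an annotation is given in the sources used here. Columns were matched to libraries by the sample names in the descriptions, which name Ctrl MT and BKO WT, and the level of Bscl2 checked this. BKO-3 holds 0 values above 0 and below 0.486 FPKM, while each of the other libraries has 341 to 632 values there, so genes low in BKO-3 may not be listed.

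A two-group model used limma 3.58.1 (R 4.3.3) on log2(FPKM + 1), with an intensity trend, for genes whose mean reached 1 FPKM, and p-values were adjusted by Benjamini-Hochberg over all tested genes at 0.05. Differences on this scale understate changes of low genes. The fit was tested on simulated data.

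Members and lists were chosen with earlier results of these data known. Named were the members, Bscl2, pathway genes past the test, the 4 most abundant genes of each pathway list and the 5 profiles nearest to Npr1. RefSeq promoters were matched by symbol for all 6 members. The alternatives were other pseudocounts (0.1 and 0.5), filters, scalings, variance settings and library weights, a replicate block, and leaving out each library.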

Additional observations from a re-analysis of the deposited data

How the results depend on the processing

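The difference in Npr1 ranged from 0.53 to 0.58 on the log2 scale over 15 alternatives and passed in 8 of them (limma adjusted p from 0.0174 to 0.177). That of Npr3 ranged from 0.59 to 0.79 and passed in 0 of 15 (adjusted p from 0.0679 to 0.482). No pathway gene passed in any alternative, and Bscl2 passed in all 15. Over all genes there were 18 higher and 1 lower, against 9 higher with a mean of at least 5 FPKM and 48 higher and 6 lower with library weights. With 1 library left out there were 5 (without BKO-1) to 30 (without BKO-3) higher, with 8 without Ctrl-2 and 11 without Ctrl-3 or BKO-2, and 1 to 3 lower, with 3 without Ctrl-1 and 2 without Ctrl-3, BKO-2 or BKO-3. The cause of these shifts was not tested.

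With 5 libraries the sign-flip test cannot pass, and mean log2 ratios were 0.998 to 1.12 for Npr1 over Npr3, 1.62 to 1.71 for Npr2 over Gucy1b3, 0.32 to 0.39 for Gucy1b3 over Gucy1a3 and -0.01 to 0.16 for Npr3 over Npr2. The last changed sign without BKO-1 (-0.00256), BKO-2 (-0.00947) or BKO-3 (-0.0129). Leaving out any BKO library gives the Ctrl libraries, in which Npr2 was the higher, more weight in this pooled mean.

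Deviations from the group means had correlations of 0.196, -0.104 and -0.100 between libraries with the same replicate number. The highest over all pairs was 0.219, between Ctrl-3 and BKO-2, so not every library correlated best with its own number. With 3 libraries per group these values cannot decide whether the numbers pair the libraries. With a replicate block there were 23 higher and 2 lower genes, and adjusted p was 0.0772 for Npr1 and 0.0685 for Npr3.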
